A study of Mus musculus with 6 samples.

Results

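Transcript levels of Wnt ligands, their receptors, their secreted antagonists and a few feedback and target genes of the pathway were followed in mouse embryonic fibroblasts (MEFs) that lacked the histone variant H2AX and in wild-type (WT) MEFs. The list holds 50 genes, taken by name for their role in the pathway, and a gene was read from a probe set whose array annotation gives 1 gene symbol, the one with the highest mean over the arrays where a gene had several. Of the 50 genes, 49 were measured, among 19938 genes in all. Tcf7, a transcription factor of the pathway, had no probe set of its own in this annotation and is not analysed here. Wisp1 and Wisp2 are listed under the current symbols Ccn4 and Ccn5 and were matched by gene identifier.

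The study compared untreated H2AX knockout (KO) MEFs, derived from H2AX mutant mice, with WT MEFs, called parental in the design. Both were grown in DMEM with fetal bovine serum. Total RNA was hybridised to Affymetrix Mouse Gene ST arrays, in which many short probes spread over a gene are summarised as a probe set, and 3 arrays were run for either genotype. The values are log2 expression values, so that a difference of 1 is a fold change of 2. The sources used here give neither the stage nor the sex of the embryos, and while the study calls the replicates independent, they do not say whether these were separate embryos or cultures. The p-values therefore reflect only how far these arrays spread.

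Wnt proteins are lipid-modified secreted ligands that bind Frizzled receptors at the cell surface. Together with the co-receptors Lrp5 and Lrp6 they stabilise β-catenin, which enters the nucleus and activates genes with the TCF/LEF factors, whereas ligands such as Wnt5a also act through Ror receptors without β-catenin, on cell polarity and movement. Secreted Frizzled-related proteins and Wif1 bind Wnts, Dickkopf proteins such as Dkk1 block Lrp5 and Lrp6, and R-spondins raise the number of Frizzled receptors through the Lgr receptors. In fibroblasts and other mesenchymal cells the pathway is known for its part in limb and skeletal patterning, matrix production and the choice between bone and fat cell fates.

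Upstream sequences are given for the genes past a fold change of 2 that the RefSeq promoter table (build GRCm38.p6) holds, which are 4 of the 10 such genes, to show the start regions of genes that differed in opposite directions. Each run is the 250 bases before the transcription start, 5′ to 3′ on the strand of the gene, and capitals mark the core of the TCF/LEF motif, CTTTG, or CAAAG, which is the same motif read on the other strand. Frzb lies at chr2:80447397-80447646 on the minus strand, Nkd1 at chr8:88527383-88527632 on the plus strand, Sfrp2 at chr3:83766071-83766320 on the plus strand, and Wnt10b at chr15:98778151-98778400 on the minus strand.
Frzb: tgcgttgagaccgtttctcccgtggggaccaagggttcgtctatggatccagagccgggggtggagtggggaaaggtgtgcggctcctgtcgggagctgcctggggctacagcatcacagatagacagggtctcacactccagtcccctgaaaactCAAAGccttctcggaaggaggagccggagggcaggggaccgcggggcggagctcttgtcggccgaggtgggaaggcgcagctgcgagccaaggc
Nkd1: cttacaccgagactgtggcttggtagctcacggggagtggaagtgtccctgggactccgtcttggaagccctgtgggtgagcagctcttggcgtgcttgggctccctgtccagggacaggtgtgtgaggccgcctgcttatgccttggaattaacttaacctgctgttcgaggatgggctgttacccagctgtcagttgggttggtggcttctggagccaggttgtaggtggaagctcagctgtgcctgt
Sfrp2: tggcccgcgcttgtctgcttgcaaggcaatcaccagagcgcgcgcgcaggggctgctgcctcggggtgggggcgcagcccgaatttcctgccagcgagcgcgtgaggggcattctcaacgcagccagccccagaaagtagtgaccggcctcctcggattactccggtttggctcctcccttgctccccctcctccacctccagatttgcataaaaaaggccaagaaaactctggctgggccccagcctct
Wnt10b: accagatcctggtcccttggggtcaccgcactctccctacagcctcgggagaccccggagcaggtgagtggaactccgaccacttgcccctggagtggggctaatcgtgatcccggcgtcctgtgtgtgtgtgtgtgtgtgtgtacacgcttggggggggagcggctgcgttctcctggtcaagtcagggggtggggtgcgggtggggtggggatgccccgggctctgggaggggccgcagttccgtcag
The Frzb window held 1 core match, 94 bases before the start, and these letters were not in the other 3 windows. With the 50 bases after the start added, Wnt10b held 1 core match as well. In the 250 bases shown, Frzb had 16 CpG dinucleotides, Sfrp2 16, Wnt10b 14 and Nkd1 6. The table held 38 promoters of 32 of the listed genes, among 32851 promoters of 27025 genes. In this paragraph "all genes" means those in the promoter table and not the 19938 measured on the arrays. On either strand, 17 of these 38 windows held the core (44.7%), against 15958 of 32851 windows of all genes (48.6%). The longer motif CTTTGAT, which contains the core, was searched over 250 bases before to 50 bases after the start, and was found in 2 of the 38 promoters (5.26%), of Wnt11 and of Wnt5b, against 1225 of 32851 of all genes (3.73%). Over these longer windows of 300 bases, Frzb had 20 CpG dinucleotides, Sfrp2 22, Wnt10b 18 and Nkd1 6, and the promoters of the list had a median of 24, against 7 for all genes. A match is a description of the letters and not a binding site.

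Of the 49 genes, 17 were higher and 7 were lower in KO MEFs, and 25 were not called (limma, adjusted p under 0.05 over all 19938 genes). Called genes thus made up 49.0% of the list, beside 33.4% of all genes (18.4% higher and 15.0% lower). With a fold change over 2 as a second condition, 7 genes of the list were higher and 3 lower, or 20.4% of the list, beside 5.30% of all genes (2.12% higher and 3.18% lower). In 28 of the 49 genes the 3 KO values and the 3 WT values did not overlap, which was the case in 44.8% of all genes. The median log2 difference between KO and WT was 0.10 over the list and 0.02 over all genes. The share called moved with the level: of 24 listed genes whose mean lay above the median of all gene means (6.39), 18 were called (75.0%, beside 53.1% of all genes above that median), and of the 25 at or below it 6 were called (24.0%, beside 13.8%). No test of the list as a whole was run.

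**Figure D1:**
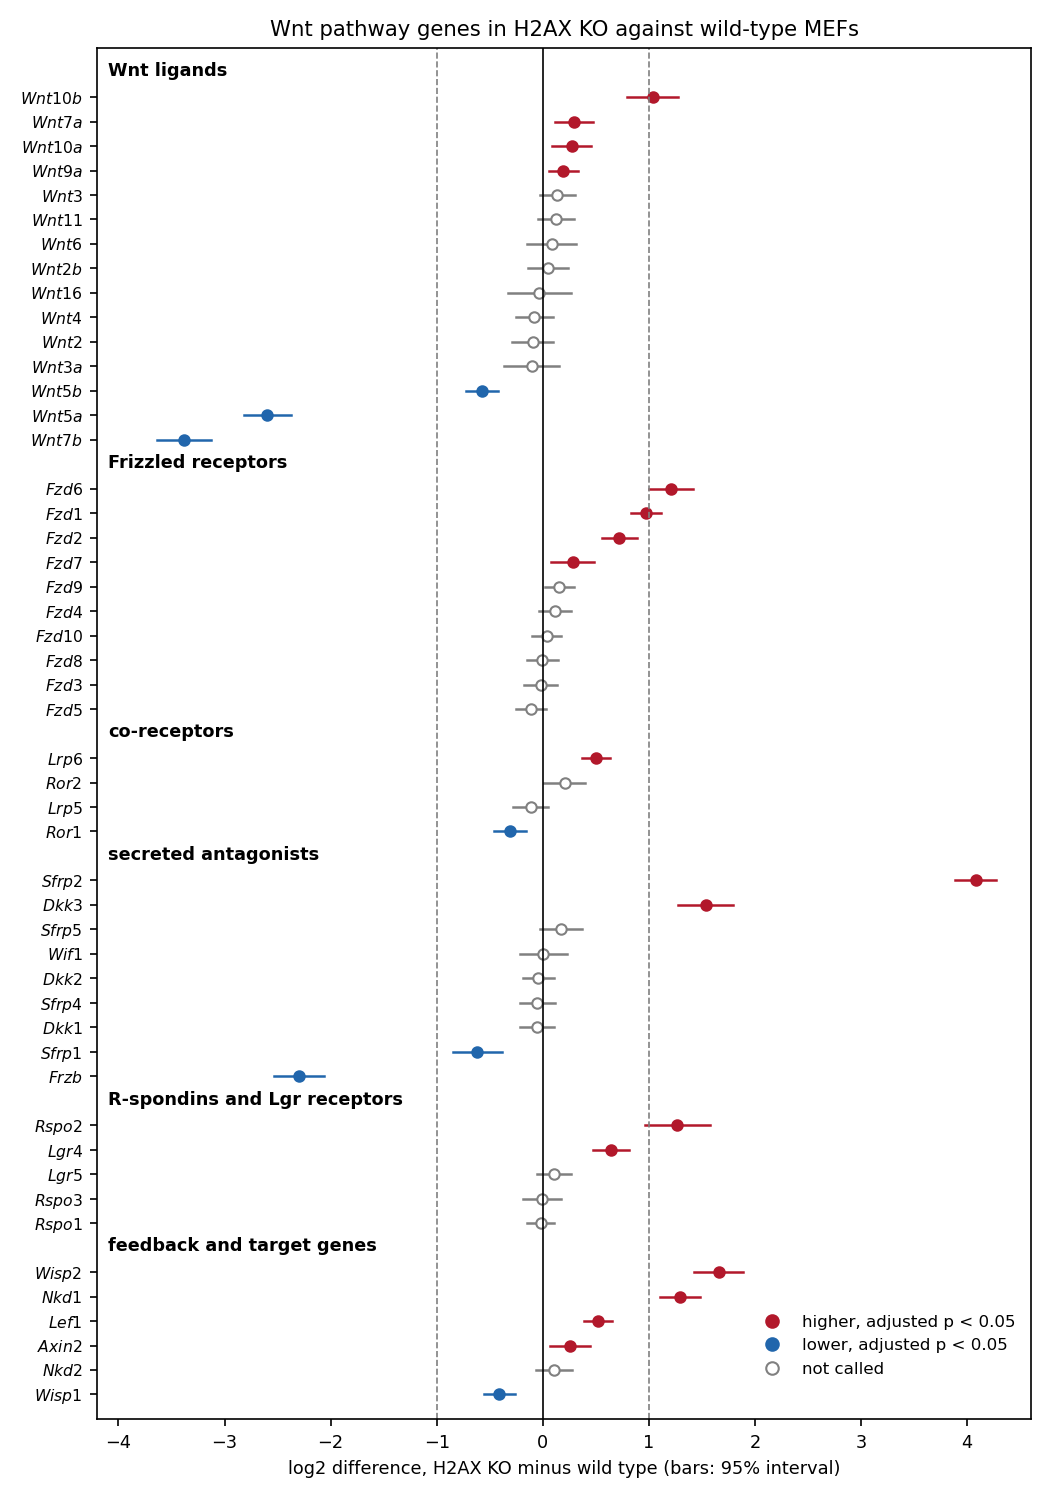
Difference in log2 expression between H2AX KO and WT MEFs for 49 Wnt pathway genes, ordered by role, with 95% confidence intervals from limma over 3 arrays of either genotype and dashed lines at a fold change of 2. Sfrp2 stands farthest on the side of higher values in KO MEFs at 4.08, and Wnt7b farthest on the side of lower values at -3.38.

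H2ax checked the labels: its log2 values were 7.69, 7.77 and 7.67 in KO MEFs, against 8.96, 9.18 and 9.00 in WT MEFs, a difference of -1.34 (standard error 0.07, adjusted p = 5.8e-07). The KO mean of H2ax, 7.71, still lay above the median of all gene means (6.39). The position of its probes relative to the deleted part is not given in the sources used here, and no listed gene lies on its chromosome. Arrays of a genotype lay closer to each other (Euclidean distances of 33.2 to 47.7 over all probe sets) than to those of the other genotype (93.4 to 101.5). All 12 fibroblast markers lay above the median of all gene means in these cells; 5 were higher in KO MEFs and 5 lower, with Thy1, a fibroblast surface protein, at a log2 difference of 4.03 and the proteoglycan gene Dcn at -2.15, and the mean of the list ranged from 10.27 to 10.28 in KO MEFs and from 9.91 to 10.01 in WT MEFs. Of the 8 epithelial markers 1 was higher and none lower, of the 6 neural and glial markers 1 was higher, of the 8 endothelial markers 2 were lower, of the 10 macrophage and leukocyte markers 1 was higher and 1 lower, and of the 7 muscle markers none was called. The mean of each of these lists lay between 4.96 and 5.74 in KO MEFs and between 5.06 and 5.66 in WT MEFs. The Y-linked genes Eif2s3y, Uty and Kdm5d had log2 differences of -4.04, -3.73 and -2.88 and were lower on all 3 KO arrays. Their means were 4.05, 4.35 and 4.92 in KO MEFs, low on the scale, against 8.09, 8.08 and 7.80 in WT MEFs. Xist differed by 0.03 (adjusted p = 0.80) and was low in both, with means of 4.56 in KO MEFs and 4.53 in WT MEFs. A difference in Y-linked transcripts and the genotype thus cannot be told apart in these arrays. In RNA from a whole culture, fewer cells of a kind and less RNA per cell cannot be told apart either. The part of these differences in the results on Wnt genes was not tested.

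Among the ligands, Wnt7b and Wnt5a were far lower in KO MEFs and Wnt10b was higher. Wnt7b, a ligand of the β-catenin branch in many tissues, had log2 values of 5.67, 5.52 and 6.01 in KO MEFs, against 9.20, 9.04 and 9.12 in WT MEFs. The groups lay far apart, and the measured log2 difference was -3.38 (standard error 0.11, adjusted p = 1.9e-08), with a KO mean of 5.73 that was low on the scale. Wnt5a, the main ligand of β-catenin-independent signalling in mesenchyme, had values of 6.38, 6.33 and 6.14 in KO MEFs, against 8.69, 8.99 and 8.97 in WT MEFs. Its groups did not overlap, and it was 6.06-fold lower (log2 difference -2.60, standard error 0.10, adjusted p = 3.7e-08). Array values are compressed near the background, so that such differences may understate those in transcript number.

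Wnt10b, a ligand known to favour bone over fat cell fates, had values of 7.61, 7.43 and 7.16 in KO MEFs, against 6.35, 6.31 and 6.44 in WT MEFs. All 3 KO values were above all WT values, with KO replicate 1 the highest, and the log2 difference was 1.03 (standard error 0.11, adjusted p = 4.4e-05). Without KO replicate 1 the difference was 0.93, which is under a fold change of 2. Wnt5b, the close relative of Wnt5a, was lower as well, with a smaller log2 difference of -0.57 (adjusted p = 9.6e-05). Wnt7a, Wnt10a and Wnt9a were higher by 0.29, 0.27 and 0.19 (adjusted p = 0.018, 0.026 and 0.034). Both genotype means of Wnt7a were low on the scale, below the means of the marker lists of other cell types. The mean of Wnt9a over the arrays did not lie above the median of all gene means, whereas that of Wnt10a did. In all, 4 of 15 ligands were higher, 3 were lower and 8 were not called, with a median difference of 0.05. Called genes made up 46.7%, beside 33.4% of all genes. Of all genes above the median of gene means, where 6 of the 15 lie, 53.1% were called. The 8 ligands not called were Wnt2, Wnt2b, Wnt3, Wnt3a, Wnt4, Wnt6, Wnt11 and Wnt16, with log2 differences between -0.11 and 0.14. Wnt4 has a second probe set with a log2 difference of 0.20 (adjusted p = 0.16 over all probe sets), against -0.08 for the one used, and neither passed the test.

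Several ligand genes are neighbours in the genome, and their differences were read side by side. In 2 pairs of listed genes no protein-coding gene lies between them in the RefSeq table. Wnt6 and Wnt10a, on chromosome 1, had log2 differences of 0.09, which did not pass the test, and 0.27. Wnt3a and Wnt9a, on chromosome 11, had differences of -0.11, which did not pass the test, and 0.19. Wnt1, the neighbour of Wnt10b on chromosome 15, had a difference of 0.01 and did not pass, beside 1.03 for Wnt10b. Wnt9b, the neighbour of Wnt3 on chromosome 11, had a difference of -0.06, beside 0.14 for Wnt3, and neither passed.

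**Figure D2:**
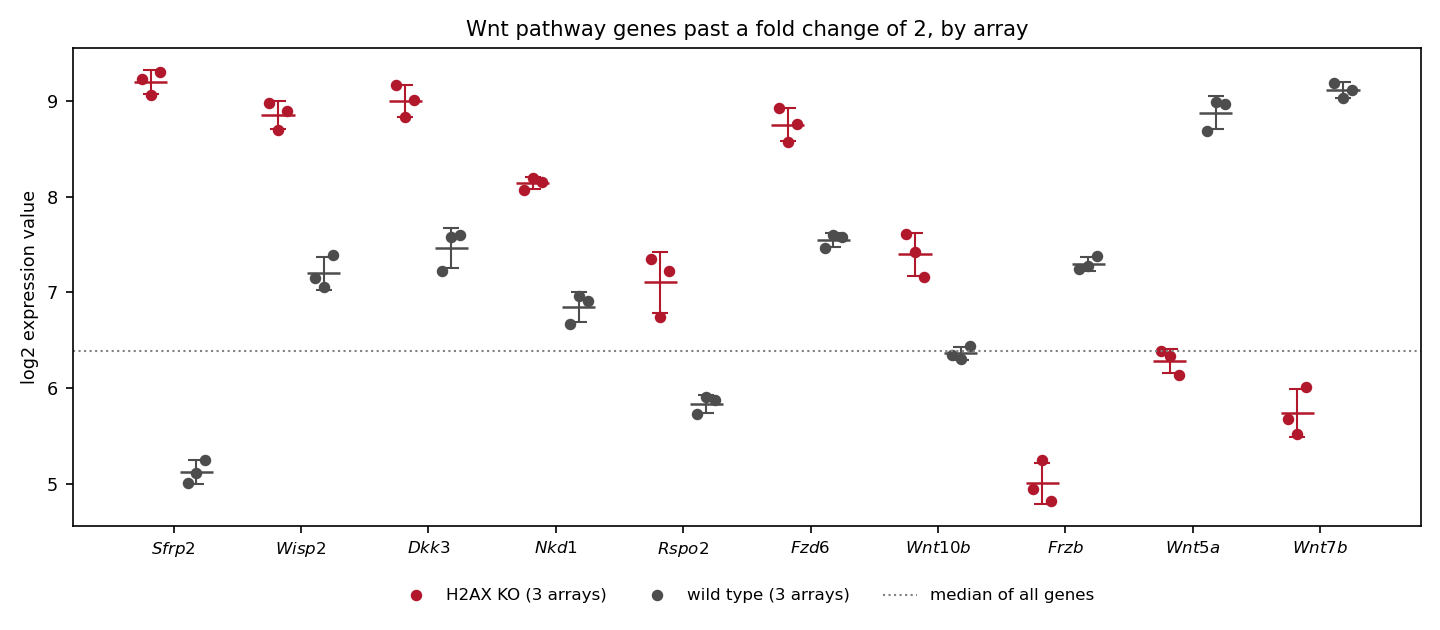
Log2 expression of the 10 Wnt pathway genes called with a fold change over 2, in each of 3 H2AX KO arrays (left of each pair) and 3 WT arrays, with the mean and SD as bars and the median of all gene means as a dotted line. The KO and WT points do not overlap in any of the 10 genes. These were picked by their difference on the same arrays, so that the gap adds no support to it. Of all genes, 44.8% had such a gap. Levels of different genes come from different probe sets and are not compared.

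The Frizzled receptors that were called were all higher in KO MEFs. Fzd6, a receptor known for its part in planar cell polarity, had values of 8.93, 8.58 and 8.76 in KO MEFs, against 7.47, 7.60 and 7.58 in WT MEFs. All 3 KO values lay above all WT values, and the log2 difference was 1.21 (standard error 0.09, adjusted p = 4.9e-06). Fzd1 and Fzd2, close relatives that transmit β-catenin signals, were higher by 0.97 (adjusted p = 1.7e-06) and 0.72 (adjusted p = 3.9e-05), and Fzd1 reached 1.01 without WT replicate 1. Fzd7, of the same subfamily, was higher by 0.28 (adjusted p = 0.036). Of 10 Frizzled genes, 4 were higher, none was lower and 6 were not called. Called genes thus made up 40.0%, beside 33.4% of all genes. Of all genes above the median of gene means, where 6 of the 10 lie, 53.1% were called. The genes not called were Fzd3, Fzd4, Fzd5, Fzd8, Fzd9 and Fzd10, with differences between -0.11 and 0.16. The KO and WT values of Fzd4, Fzd5 and Fzd9 did not overlap although these genes were not called, at differences of 0.11, -0.11 and 0.16. Such a gap was present in 44.8% of all genes.

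Of the co-receptors, Lrp6 was higher in KO MEFs and Ror1 lower. Lrp6, which with Frizzled forms the receptor of the β-catenin branch, had values of 9.86, 9.85 and 9.89 in KO MEFs, against 9.35, 9.40 and 9.35 in WT MEFs. The values within a genotype lay close together, and the log2 difference was 0.50 (standard error 0.06, adjusted p = 1.0e-04). Its relative Lrp5 had a difference of -0.11 and was not called, with a 95% confidence interval of -0.28 to 0.05. Ror1, a receptor tyrosine kinase that binds Wnt5a, was lower by 0.31 on the log2 scale (adjusted p = 0.0058). Ror2, the other Wnt5a receptor of this kind, did not pass the test (difference 0.21, 95% confidence interval 0.02 to 0.40, adjusted p = 0.096). Its KO and WT values did not overlap, as was the case in 44.8% of all genes.

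The secreted antagonists held the largest measured log2 difference of the list. Sfrp2, a secreted Frizzled-related protein made by mesenchymal cells, had values of 9.23, 9.06 and 9.31 in KO MEFs, against 5.01, 5.11 and 5.25 in WT MEFs. The groups lay far apart, and the measured log2 difference was 4.08 (standard error 0.09, adjusted p = 1.1e-09). The WT mean of 5.12 was low on the scale, near the means of the marker lists of other cell types, so that this difference may understate that in transcript number. Frzb, the family member first known from cartilage, differed the other way, with values of 4.95, 5.24 and 4.82 in KO MEFs, against 7.24, 7.28 and 7.38 in WT MEFs. The groups did not overlap, and the measured log2 difference was -2.30 (standard error 0.10, adjusted p = 1.2e-07), with a KO mean of 5.00 that was likewise low on the scale. Sfrp1, another member of the family, was lower by 0.62 on the log2 scale (adjusted p = 0.0010), with a mean of 4.66 ± 0.10 in KO MEFs and 5.28 ± 0.20 in WT MEFs (SD, n = 3 each), so that both means were low on the scale. Sfrp4 and Sfrp5 did not pass the test.

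Dkk3, a divergent Dickkopf protein that is not a plain Lrp blocker like Dkk1, had values of 9.17, 8.83 and 9.01 in KO MEFs, against 7.23, 7.58 and 7.60 in WT MEFs. The lowest KO value was above the highest WT value, and the log2 difference was 1.53 (standard error 0.12, adjusted p = 5.1e-06). Dkk2, which also binds Lrp6, had means of 9.58 ± 0.08 in KO MEFs and 9.62 ± 0.03 in WT MEFs (SD, n = 3 each), with a 95% confidence interval of the difference of -0.19 to 0.11. Dkk1 and Wif1 did not pass the test either. Of 9 antagonists, 2 were higher, 2 were lower and 5 were not called, and those that changed were thus divided between both directions, within the Frizzled-related proteins as well. Called genes made up 44.4% of the 9, beside 33.4% of all genes. Of all genes above the median of gene means, where 3 of the 9 lie, 53.1% were called.

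Rspo2 and Lgr4 were higher among the R-spondins and their receptors. Rspo2, a secreted amplifier of Wnt signalling needed for limb and lung development, had values of 7.35, 6.74 and 7.22 in KO MEFs, against 5.73, 5.91 and 5.87 in WT MEFs. KO replicate 2 was the lowest of its group and still above every WT array, and the log2 difference was 1.27 (standard error 0.14, adjusted p = 6.5e-05). Lgr4, an R-spondin receptor of many tissues, was higher by 0.64 (adjusted p = 1.2e-04). Rspo1, Rspo3 and Lgr5, a stem cell marker, were not called, with differences between -0.02 and 0.10.

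Of the 6 measured feedback and target genes, 4 were higher, 1 was lower and 1 was not called. Called genes made up 83.3% of these 6, beside 33.4% of all genes. Of all genes above the median of gene means, where 4 of the 6 lie, 53.1% were called. Nkd1, a feedback inhibitor that binds Dishevelled, had values of 8.07, 8.20 and 8.16 in KO MEFs, against 6.67, 6.96 and 6.91 in WT MEFs. The groups were separated by more than the range within either, with a log2 difference of 1.30 (standard error 0.08, adjusted p = 1.7e-06). Wisp2, a secreted matricellular protein of the CCN family, had values of 8.98, 8.70 and 8.90 in KO MEFs, against 7.15, 7.06 and 7.40 in WT MEFs. It was 3.16-fold higher without overlap (log2 difference 1.66, standard error 0.10, adjusted p = 1.2e-06). Wisp1, another CCN protein and a known β-catenin target, was lower by 0.41 on the log2 scale (adjusted p = 7.7e-04). Lef1, a nuclear partner of β-catenin, was higher by 0.52 (adjusted p = 9.7e-05). Axin2, the most widely used target gene of the β-catenin branch and part of the complex that degrades β-catenin, was higher by 0.26 (adjusted p = 0.039), with a mean of 5.92 ± 0.06 in KO MEFs and 5.66 ± 0.15 in WT MEFs (SD, n = 3 each). Nkd2, the relative of Nkd1, had a difference of 0.10 and did not pass the test.

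**Figure D3:**
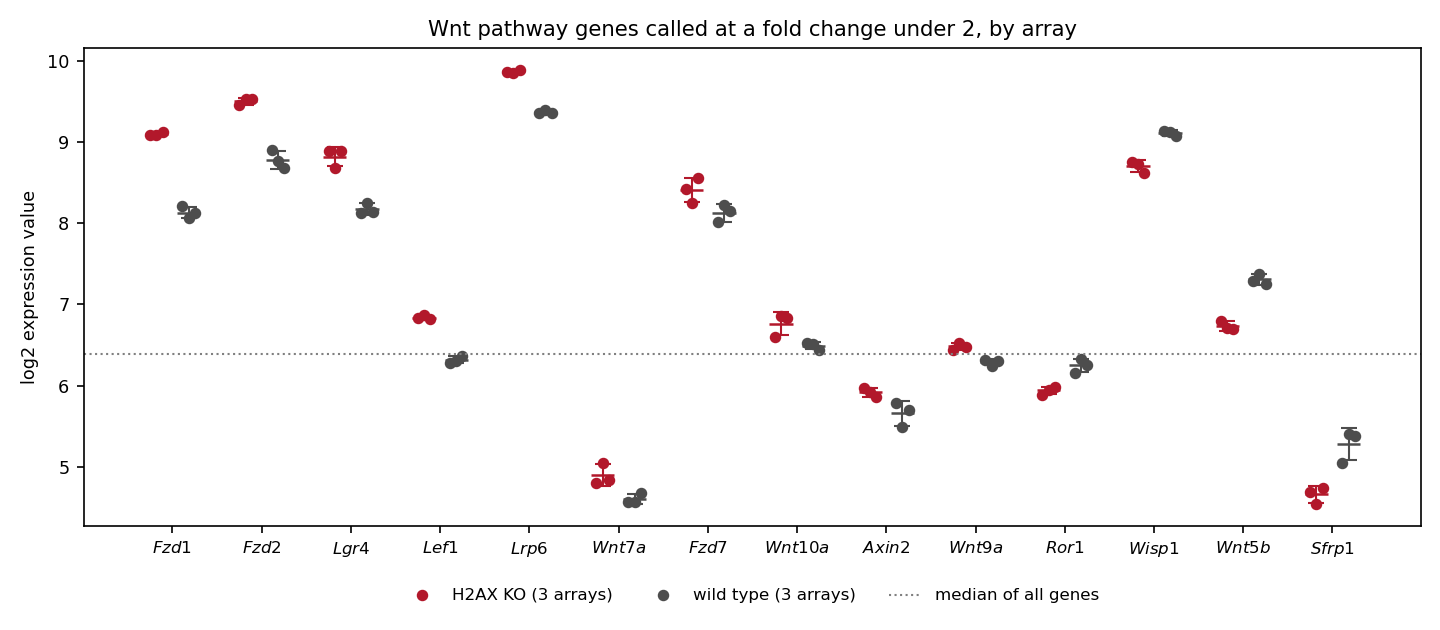
Log2 expression of the 14 Wnt pathway genes called at a fold change under 2, in each of 3 H2AX KO arrays (left of each pair) and 3 WT arrays, with the mean and SD as bars and the median of all gene means (6.39) as a dotted line. Lrp6 shows groups tight against their difference of 0.50, whereas the nearest KO and WT points of Fzd7, Wnt10a and Axin2 lie close together.

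Of the 49 genes, 7 changed sides of the threshold when single arrays were left out, 5 of them called and 2 not called with all arrays. Over the 6 fits that each left out 1 array, the adjusted p of Wnt7a ranged from 0.014 to 0.071 and was above 0.05 without WT replicate 1 or WT replicate 2. That of Wnt9a ranged from 0.048 to 0.12 and was above 0.05 without KO replicate 2 or 3 or WT replicate 2 or 3, and the same arrays ended the call of Wnt10a (0.0046 to 0.11). Fzd7 (0.0067 to 0.15) lost its call without KO replicate 1 or 3 or WT replicate 1 or 3. Axin2 (0.019 to 0.14) kept it only without WT replicate 1. Of the genes not called with all arrays, Fzd9 (0.044 to 0.23) was called as higher without KO replicate 2 and Ror2 (0.016 to 0.25) without KO replicate 1. The other 19 called genes were called in the same direction in every one of these fits, and so were the 10 with a fold change over 2, of which Wnt10b alone fell under that fold.

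The wider pathway was read from 80 further genes, of which 79 were measured. Of these 25 were higher, 16 were lower and 38 were not called. The share called was 51.9%, beside 33.4% of all genes and 53.1% of all genes above the median of gene means, where 56 of these 79 lie. With a fold change over 2, 2 were higher and 4 lower (7.59%, beside 5.30% of all genes and 8.60% of those above that median). The 4 other Wnt ligands, Wnt1, Wnt8a, Wnt8b and Wnt9b, did not pass the test.

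At the cell surface, 5 of 18 genes were higher, 4 lower and 9 were not called. Apcdd1, a membrane protein that inhibits Wnt signalling by binding ligands and Lrp5, had values of 6.97, 6.81 and 6.85 in KO MEFs, against 11.36, 11.48 and 11.41 in WT MEFs. It was 23.3-fold lower in KO MEFs (log2 difference -4.54, standard error 0.07, adjusted p = 2.0e-10), and no KO value came near the WT values. Lgr6, an R-spondin receptor related to Lgr4, was lower by 1.71 (adjusted p = 2.5e-07). Ptk7, a pseudokinase co-receptor of planar cell polarity, was higher by 0.99 (adjusted p = 1.1e-06), and Ryk, a Wnt receptor related to tyrosine kinases, by 0.56 (adjusted p = 1.1e-04). Of the pair of genes that ligands need on their way out of the cell, Porcn, which attaches the lipid, was higher by 0.72 (adjusted p = 1.5e-05) and Wls, which carries the ligand to the surface, was lower by 0.59 (adjusted p = 1.6e-04).

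**Figure D4:**
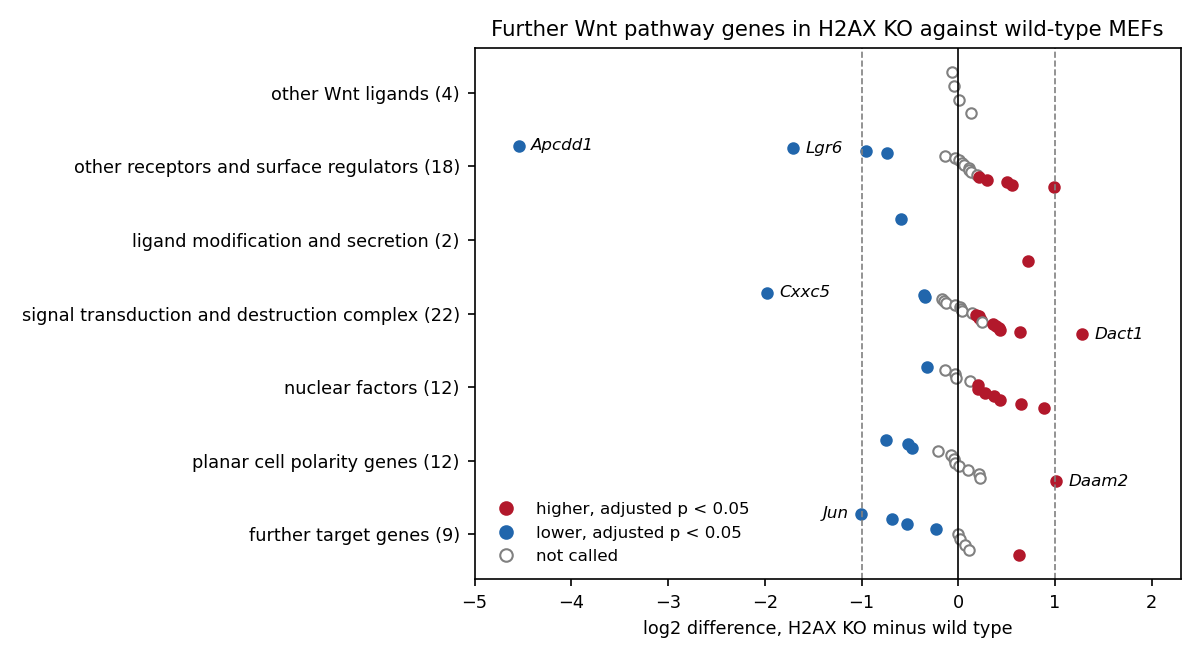
Difference in log2 expression between H2AX KO and WT MEFs for 79 further Wnt pathway genes, 1 point per gene, grouped by role, with called genes (limma, adjusted p under 0.05) filled and dashed lines at a fold change of 2. Apcdd1 lies lowest at -4.54 and Dact1 highest at 1.28.

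Inside the cell, 10 of 22 genes of signal transduction and of the β-catenin destruction complex were higher, 3 were lower and 9 were not called. Called genes made up 59.1%, beside 33.4% of all genes. Of all genes above the median of gene means, where 20 of the 22 lie, 53.1% were called. Dact1, a Dishevelled-binding regulator, was higher by 1.28 (adjusted p = 3.9e-05) and Gsk3b, the kinase that marks β-catenin for degradation, by 0.64 (adjusted p = 2.1e-05). Cxxc5, a feedback inhibitor that binds Dishevelled, was lower by 1.98 (adjusted p = 3.4e-08) and the casein kinase gene Csnk1a1 by 0.35 (adjusted p = 0.0033). Ctnnb1, which encodes β-catenin itself, had a log2 difference of -0.15 and did not pass the test (adjusted p = 0.14). Transcript levels do not measure the stability or location of the protein.

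Of 12 nuclear factors, 7 were higher, 1 was lower and 4 were not called. Called genes made up 66.7%, beside 33.4% of all genes. Of all genes above the median of gene means, where 11 of the 12 lie, 53.1% were called. The corepressor gene Tle4 was higher by 0.88 (adjusted p = 2.4e-05) and Bcl9l, a β-catenin coactivator, by 0.65 (adjusted p = 0.0016), whereas the corepressor gene Tle3 was lower by 0.32 (adjusted p = 0.0064). Of 12 planar cell polarity genes, 1 was higher, 3 were lower and 8 were not called. The share called was 33.3%, beside 33.4% of all genes. Daam2, a formin that acts with Dishevelled, was higher by 1.01 (adjusted p = 1.3e-05), and the membrane proteins Vangl2 and Vangl1 were lower by 0.75 and 0.52 (adjusted p = 6.4e-05 and 1.0e-04). Of 9 measured further target genes, 1 was higher, 4 were lower and 4 were not called. Their share called was 55.6%, and 6 of the 9 lie above the median of gene means, where 53.1% of all genes were called. Twist1, a mesenchymal transcription factor, was higher by 0.63 (adjusted p = 5.2e-04), and Jun and the cyclin gene Ccnd1 were lower by 1.00 and 0.68 (adjusted p = 1.2e-04 and 1.7e-05). These genes answer to several other pathways as well. Of the called genes of both target lists, Axin2, Lef1, Nkd1, Wisp2 and Twist1 were higher, and Wisp1, Jun, Ccnd1, Bambi and Fosl1 were lower. When single arrays were left out, Axin2 kept its call only without WT replicate 1.

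With 3 KO and 3 WT arrays the smallest p of an exact permutation test is 0.10. In the unmoderated one-way test of the methods, which shares no variance across genes as limma does, 13 genes of the list were higher and 7 lower after adjustment, and 20 of the 24 calls were kept. The precision of every difference is limited by the number of arrays.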

How the data were processed

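Total RNA of 3 H2AX KO and 3 WT replicates of MEFs was hybridised to Affymetrix Mouse Gene ST arrays. The authors made CHP files in Affymetrix Expression Console, normalized the array scans (CEL files) in Partek (version 6.6) and deposited log2 expression values. These values cover 35556 probe sets and have array medians of 6.06 to 6.12. The normalization method is not given in the sources used here. The methods name version 2.0 of the array, whereas the identifiers belong to the annotation of version 1.0. Probe sets with 1 symbol (21789) were used, symbols were updated through RefSeq (GRCm38.p6), and the probe set with the highest mean was taken for 999 genes with several, giving 19938 genes.

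Genotypes were compared with limma (version 3.58.1, R version 4.3.3; lmFit and eBayes, genotype alone), and p-values were adjusted over all genes by Benjamini and Hochberg. The threshold for a call was an adjusted p under 0.05, alone or with a fold change over 2. The comparison was tested on simulated data. The 50 genes and the lists were chosen with earlier results of these data known, so that no test of a list was run. Values per array were given for genes past a fold change of 2 and for the called co-receptor with the largest difference. Of the wider pathway the 2 largest called rises and falls per group were named. Apcdd1 per array, Ctnnb1, Bambi, Fosl1 and the 4 ligands were added after their values were seen.

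The alternatives tried were leaving out each array, a replicate block, the unmoderated one-way test of the methods, a trended and robust variance prior, quantile normalization, median centring, array weights, a filter on the 50% of genes of lowest mean, averaged probe sets of a gene, all probe sets, and a fold change over 1.5. Promoter motifs were counted in RefSeq windows.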

Additional observations from a re-analysis of the deposited data

How the results depend on the processing

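Of the 24 called genes, 19 stayed called in the same direction under each alternative that tested them, and none changed direction. Frzb, Ror1 and Sfrp1 are among the 19 but were not tested with the filter on low means. Over the alternatives 13 to 21 genes of the list were called higher, and 7 lower except with a filter on the 50% of genes of lowest mean, where 24 of the 49 genes were tested and 4 were lower; the median difference was then 0.39. The deviations of same-numbered KO and WT arrays correlated at -0.25, -0.15 and 0.07, and those of differently numbered arrays at -0.19 to 0.29. With 3 arrays of either genotype this cannot decide whether the numbers pair the arrays. With the replicate number as a block 13 genes were higher and 7 lower. Wnt9a, Wnt10a, Fzd7 and Axin2 then lost their calls (adjusted p of 0.096, 0.053, 0.065 and 0.056). These 4 also lost them over all probe sets, Wnt7a, Wnt10a, Fzd7 and Axin2 in the unmoderated one-way test, and Wnt9a with a trended and robust prior. Fzd9 and Ror2 gained a call with median centring, with array weights and without 1 KO array (replicate 2 for Fzd9, replicate 1 for Ror2), Fzd9 also after quantile normalization, and Wnt3 and Nkd2 with array weights, where the estimation stopped before convergence and KO replicate 3 was weighted at 6.17 and the remaining arrays at 0.36 to 1.60. Of the wider pathway, 2 genes were higher past a fold change of 2; this was 1 with that filter, 1 with array weights and 1 to 3 without single arrays (1 without KO replicate 2, WT replicate 1 or WT replicate 3), and with a fold change over 1.5 it was 8 higher and 9 lower.

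Of the 25 genes that were not called, 11 changed sign somewhere, always without a call. Wnt4 turned to 0.058 with the mean of its probe sets. Median centring gave 0.0051 for Wnt16, 0.018 for Fzd3, 0.035 for Fzd8, 0.018 for Rspo1 and 0.031 for Rspo3, quantile normalization gave 0.0085 for Rspo1 and 0.0082 for Rspo3, and array weights gave 0.092 for Wnt16, 0.023 for Sfrp4 and 0.051 for Rspo3. Leaving out 1 array gave -0.012 to 0.14 for Wnt2b, -0.0075 to 0.21 for Wnt6, -0.15 to 0.11 for Wnt16, -0.071 to 0.011 for Fzd3, -0.043 to 0.021 for Fzd8, -0.081 to 0.0027 for Dkk2, -0.075 to 0.11 for Wif1 and -0.073 to 0.065 for Rspo3. Median centring moved the median of all genes to 0.06, the farthest of the alternatives. The cause of these changes was not tested. Signal near the background limits what can be read of the lowest genes.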
